A study of Triticum aestivum and Aegilops tauschii and Triticum carthlicum with 33 samples.

Results

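Allo-960S7, a synthetic hexaploid wheat, was compared with Blackbird, its tetraploid parent, in leaf RNA from 3 arrays of each line, 6 of the 33 arrays of the series. Allo-960S7 had passed 7 selfed generations after synthesis and carries the BBAA genomes of Blackbird together with the D genome of 30A, a line of the diploid goat grass Aegilops tauschii. Blackbird belongs to the natural tetraploid wheat T. turgidum ssp. carthlicum, with the BBAA genomes alone. Growth chambers were held at 24 °C in the day and 20 °C at night, and days were 16 h long. The arrays were chosen by their group labels, with Allo-960S7 on top of each difference and 61179 probe sets tested after Affymetrix control probe sets were dropped. Each group is 1 line, so the D genome, the rise in ploidy and the selfed generations cannot be told apart here.

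A hexaploid wheat holds 3 related genomes, and most genes are present as homoeologs, matching copies from the A, B and D genomes. The Affymetrix wheat array reads transcripts with short probes, and a probe set can bind all copies of a gene or mainly 1 of them. A reading can therefore sum copies that the array does not separate. Each labelling started from 6 µg of total RNA, so levels are relative to total RNA, and in whole leaves fewer cells of a type cannot be told apart from less RNA per cell.

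Arrays of Allo-960S7 correlated with each other at r from 0.9935 to 0.9954 across probe sets, those of Blackbird at 0.9925 to 0.9952, and arrays of the 2 lines with each other at 0.9545 to 0.9587. The array medians of the series lay between 4.37 and 4.481 log2 units. Background was not analysed here, so a fold resting on a level under 4.441, the median of these, is insecure. The leaf genes PsbO and PsbP of the oxygen-evolving complex, petC of the cytochrome complex and PRK of the Calvin cycle averaged 14.20 to 14.41 in Allo-960S7 and 14.19 to 14.39 in Blackbird, and none was called. Of 8 genes of seed endosperm proteins, only ALP and Gli-8 lay above the array median in either line. The difference between 3′ and 5′ actin control probe sets, a measure of RNA quality, was −1.24 ± 0.10 in Allo-960S7 and −0.933 ± 0.343 in Blackbird (SD, n = 3 each).

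Large differences were mostly gains in Allo-960S7, while small ones were mostly losses. Of the probe sets tested, 11771 (19.2%) were called at an adjusted p under 0.05, with 4958 (8.1%) higher and 6813 (11.1%) lower in Allo-960S7. With a fold of at least 2 the balance turned, with 2246 higher and 1531 lower. A fold of 4 or above was reached by 954 gains and 179 losses, and one of 8 or above by 476 gains and 34 losses. The difference had a median of −0.04 log2 units over everything tested, with 5% of probe sets at or below −0.75 and 5% at or above 0.75. In the plot of difference against level, the higher calls reach beyond 8 log2 units.

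**Figure D1:**
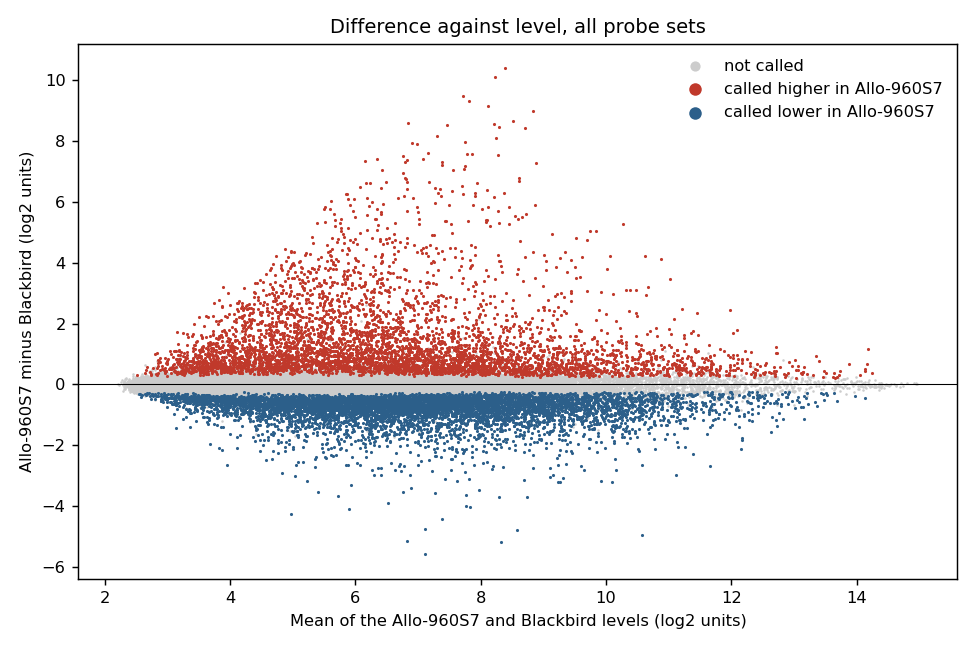
Allo-960S7 minus Blackbird (log2 units, vertical) against the mean level of both lines (log2 units, horizontal), 1 point for each of 61179 probe sets, coloured by call at an adjusted p under 0.05. The 4958 higher calls reach much further from 0 than the 6813 lower ones, most of which lie within 2 log2 units of 0.

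Probe sets that read far more in an independent D-genome line gained in most cases. They were identified on 9 arrays outside the comparison, as called and at least 4-fold higher in TQ18, another Aegilops tauschii line, than in both TTR13, a durum wheat, and TD265, a wild emmer. Over these 2086 D-enriched probe sets the median level was 6.54 in Allo-960S7 and 4.56 in Blackbird. It was 6.62 in Allo-960 mix, a physical mix of 2 parts Blackbird RNA and 1 part 30A RNA, and 8.24 in 30A. The median difference between Allo-960S7 and Blackbird was 1.40 log2 units (SD of the 3 Allo-960S7 arrays 0.028). Of the 2086, 1679 (80.5%) were called higher and 12 (0.575%) lower, against 8.1% and 11.1% of all those tested, and 395 (18.9%) were not called.

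Probe sets that read mainly the tetraploid genomes were lower in most cases, by a smaller amount. For the BBAA-enriched set, 2385 in number and lower by 4-fold or more in TQ18 than in both TTR13 and TD265, the median level was 7.62 in Allo-960S7 and 8.27 in Blackbird. The mix stood at 7.81 and 30A at 4.46. The median difference was −0.61 (SD of the 3 Allo-960S7 arrays 0.045), with quartiles of −0.93 and −0.31. For a transcript absent from 30A, a reading at 2 parts in 3 would lie at −0.585 by calculation. Absence from 30A was not tested for this set, and by median level the mix lay nearer to Blackbird than Allo-960S7 did. The cause of the lower readings was not tested. Of the 2385, 1459 (61.2%) were called lower and 62 (2.6%) higher.

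Between these extremes the difference followed the contrast of TQ18 with the mean of TTR13 and TD265 in steps. Where TQ18 was at least 4 log2 units higher, the median was 2.96 over 706 probe sets and 92.4% were called higher. It was 0.94 for 2 to 4 units (70.6% called higher), 0.28 for 1 to 2 units (34.1%) and 0.07 for 0.5 to 1 unit (14%). Below 0 it changed little past the first steps: −0.43 where TQ18 was 1 to 2 units lower, −0.59 for 2 to 4 units and −0.64 for more than 4 units. Of the 4958 probe sets called higher, 4289 (86.5%) lay above 0 in that contrast, against 55.2% of all probe sets, and 191 (3.85%) were at least 2-fold lower in TQ18. Of the 6813 called lower, 3002 (44.1%) were at least 2-fold lower in TQ18, against 9.22% of all, and 166 (2.44%) at least 2-fold higher.

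**Figure D2:**
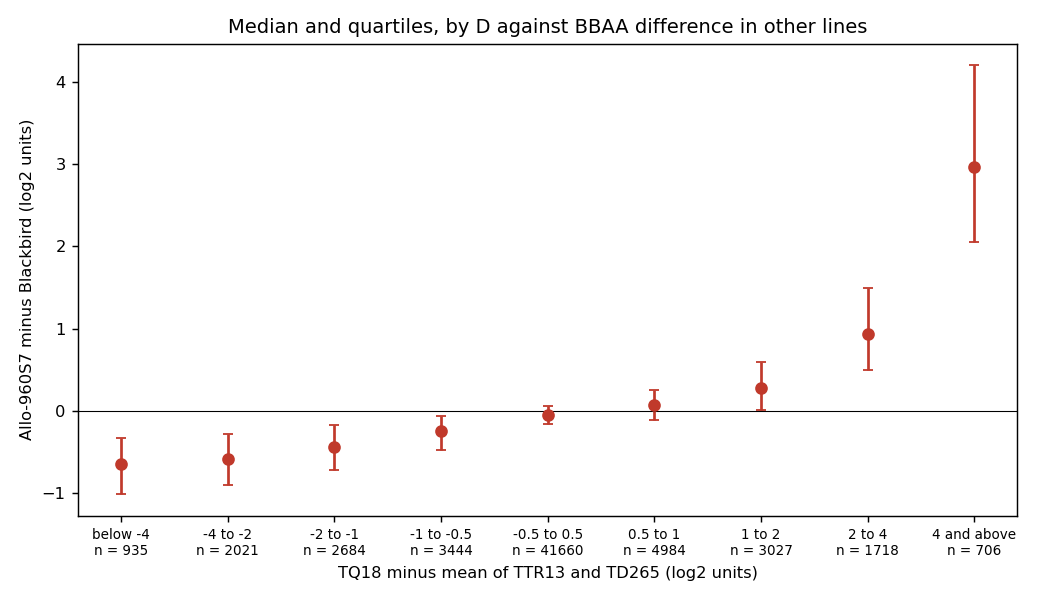
Median Allo-960S7 minus Blackbird difference (log2 units, points) with quartiles (bars), by bins of TQ18 minus the mean of TTR13 and TD265, with the number of probe sets under each bin. The median climbs to 2.96 in the highest bin, and in the lowest bin it is −0.64.

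The levels of large gains and large losses were set beside the mix of parental RNA. The 954 that were at least 4-fold higher had a median level of 7.77 in Allo-960S7 and 4.32 in Blackbird. The mix stood at 7.47 and 30A at 9.13, and 729 of the 954 (76.4%) were D-enriched. The 179 that were at least 4-fold lower had a median of 6.08 in Allo-960S7 and 8.65 in Blackbird. For these the mix, at 8.28, was close to Blackbird, and 30A was at 5.34. None of the 179 was D-enriched and 61 (34.1%) were BBAA-enriched. These sets were chosen by the size of the same difference, so their levels in both lines are a description. The mix, with 2 parts Blackbird RNA in 3, would lie at −0.585 against Blackbird or above by calculation. A set at least 4-fold lower than Blackbird therefore sits below the mix by the choice itself, and that gap is no separate result.

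Readings that crossed the array median by a wide margin were nearly all gains. In 182 probe sets Blackbird lay under the array median and Allo-960S7 at least 3 log2 units over it, with median levels of 8.70 in Allo-960S7 and 3.69 in Blackbird. Of these, 161 (88.5%) were D-enriched. The reverse was found in 5 probe sets, with median levels of 4.25 in Allo-960S7 and 7.95 in Blackbird, of which 4 were BBAA-enriched. The mix of the parents' RNA stood at 7.58 in these 5 and 30A at 3.64. With Blackbird chosen at least 3 log2 units over the array median, the mix stays well above Allo-960S7 by the choice itself.

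**Figure D3:**
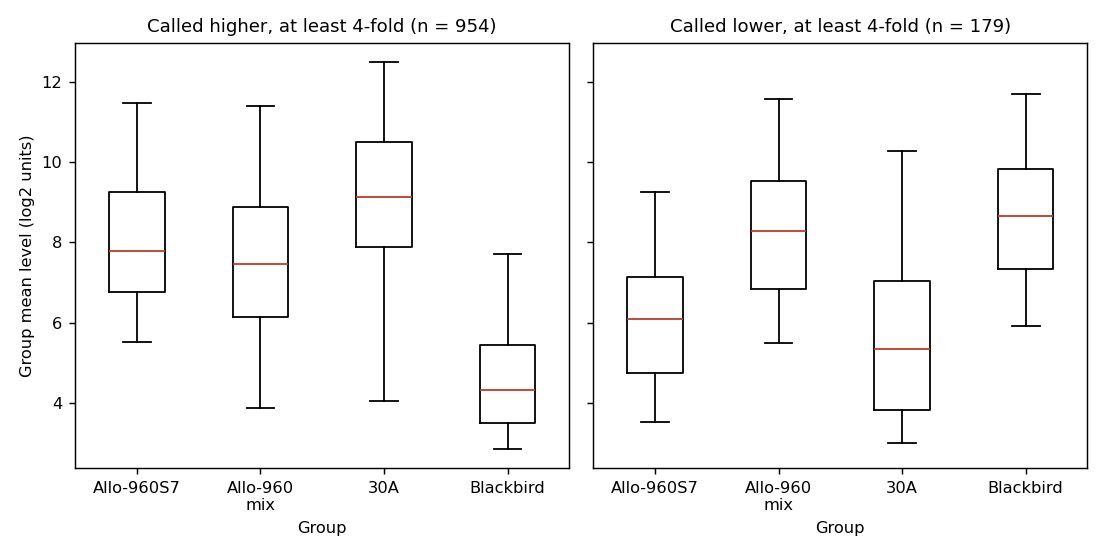
Group mean levels (log2 units) of the probe sets called at least 4-fold higher (left panel, n = 954) and lower (right panel, n = 179) in Allo-960S7; boxes show quartiles and median, whiskers reach percentiles 5 and 95. Allo-960S7 lies near Allo-960 mix in the left panel, with medians of 7.77 and 7.47, and below it in the right panel, with medians of 6.08 and 8.28. In the right panel the place below the mix follows from the 4-fold choice, since the mix holds 2 parts Blackbird RNA in 3.

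The probe sets that moved most had no gene name. Ta.13207.1.S1_x_at read 13.60, 13.57 and 13.61 in Allo-960S7, against 3.03, 3.98 and 2.56 in Blackbird. It stood at 13.97 in 30A and 13.39 in the mix. Ta.7843.1.S1_a_at averaged 13.27 in Allo-960S7 and 3.18 in Blackbird. Both Blackbird levels lie under the array median, so no fold is given. In the other direction, Ta.28750.1.S1_at read 5.81, 5.31 and 6.07 in Allo-960S7, against 10.29, 11.87 and 10.63 in Blackbird, while the mix stood at 10.43 and 30A at 6.20. Ta.1928.1.S1_a_at averaged 4.25 in Allo-960S7 and 9.39 in Blackbird, with the mix at 8.92 and 30A at 3.56.

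Of the 771 genes that the array annotation names by a symbol, 227 (29.4%) were called, 114 higher and 113 lower. For 102 the symbol or an alias is other than LOC and digits, which need not say what the gene is. Of these 102 named genes, 22 (21.6%, beside 19.2% over the whole array) passed the test, with 9 higher and 13 lower. In all 22 the 3 arrays of 1 line lay above the 3 of the other, which was so for 98.5% of all called probe sets and for 37.4% of those tested (14.5% with Allo-960S7 above and 22.9% below). Both lines lay under the array median for 28 of the 102. The plot of named genes by array gives 21 of the 22 in all 6 arrays.

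**Figure D4:**
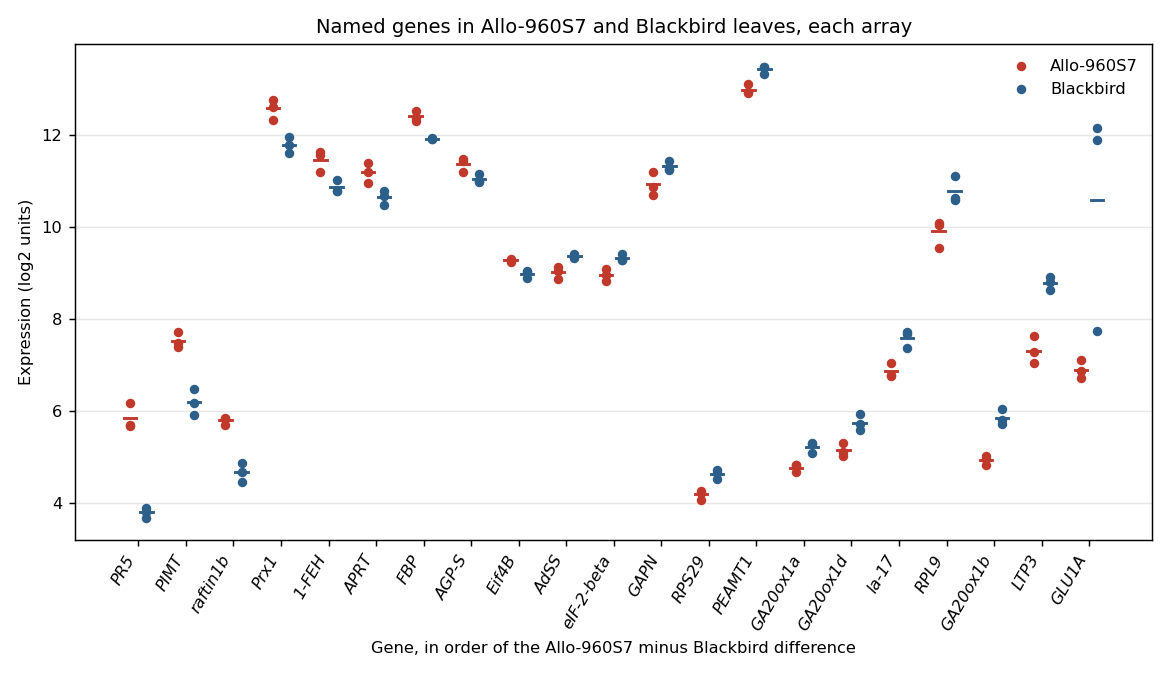
Expression of 21 named genes (log2 units) on each of 3 Allo-960S7 arrays (red, left of each pair) and 3 Blackbird arrays (blue, right); bars mark group means, and genes run from the highest to the lowest difference. In GLU1A the Blackbird array at 7.73 lies far under the other Blackbird arrays, at 11.89 and 12.14.

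Allo-960S7 was also set against Allo-960 mix, which holds both parents' RNA without a hybrid: 5227 probe sets (8.54%) were called, 2017 (3.3%) higher and 3210 (5.25%) lower. The 2 comparisons share the Allo-960S7 arrays, and values against the mix are given below beside those against Blackbird. No call against the mix was made for PR5 (0.79, adjusted p = 0.494), PIMT (0.06, adjusted p = 0.932), Prx1 (0.36, adjusted p = 0.382), APRT (0.21, adjusted p = 0.224), AGP-S (0.29, adjusted p = 0.0662) or Eif4B (0.30, adjusted p = 0.0729).

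Among methyl-transfer enzymes, PIMT rose and PEAMT1 fell. PIMT (LOC543193) repairs damaged aspartyl residues in proteins. It read 7.39, 7.47 and 7.72 in Allo-960S7, against 5.91, 6.17 and 6.49 in Blackbird. All 3 hexaploid arrays lay above all 3 parental ones, and PIMT was 2.52-fold higher (difference 1.33, SE 0.21, adjusted p = 1.34e-05). The mix stood at 7.47 and 30A at 8.92. PEAMT1 (LOC543067), a phosphoethanolamine methyltransferase of choline synthesis, read 12.90, 12.92 and 13.09 in Allo-960S7, against 13.32, 13.47 and 13.48 in Blackbird (difference −0.45, SE 0.12, adjusted p = 0.00803). Both the mix, at 13.64, and 30A, at 13.84, stood above it, and PEAMT1 was lower in Allo-960S7 than in the mix (−0.67, adjusted p = 0.000474). Of the 4 members of this list 1 was higher and 1 lower, beside 8.1% and 11.1% of all probe sets. SAHH (−0.68, adjusted p = 0.131) and COMT1 (−0.58, adjusted p = 0.11) were not called. The median of the list was −0.52, against −0.04 over all probe sets.

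All 3 genes of gibberellin synthesis were called lower, beside 11.1% of all probe sets, with a median of −0.60 against −0.04 over the array. Of the 3, GA20ox1b alone was called lower than the mix. GA20ox1a, GA20ox1b and GA20ox1d are named as copies of gibberellin 20-oxidase, which makes the precursors of active gibberellins, the hormones of stem and leaf growth. GA20ox1b (LOC543326) read 5.02, 4.82 and 4.96 in Allo-960S7, against 5.73, 6.05 and 5.81 in Blackbird, and was 1.91-fold lower (−0.93, SE 0.16, adjusted p = 5.03e-05). The mix stood at 5.74, near Blackbird, and 30A at 4.54, and GA20ox1b was lower in Allo-960S7 than in the mix (−0.81, adjusted p = 0.000952). GA20ox1d (LOC543325) read 5.03, 5.31 and 5.12 in Allo-960S7, against 5.94, 5.59 and 5.72 in Blackbird (−0.60, SE 0.20, adjusted p = 0.0327), and averaged 5.92 in 30A and 5.32 in the mix (against the mix −0.17, adjusted p = 0.725). Its other probe set was not called (−0.34, adjusted p = 0.339), and the call was lost without replicate 1 or 3 of either line (adjusted p 0.0692 to 0.15). GA20ox1a (LOC543327) read 4.67, 4.83 and 4.83 in Allo-960S7, against 5.30, 5.29 and 5.08 in Blackbird (−0.45, SE 0.12, adjusted p = 0.00682), with the mix at 4.85 (against the mix −0.08, adjusted p = 0.806). These levels lie within 2 log2 units of the array median, and near-identical copies may share probe sets.

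The defence genes moved in opposite directions. PR5 (LOC543292), a thaumatin-like protein induced by pathogens, read 5.67, 5.70 and 6.17 in Allo-960S7, against 3.69, 3.90 and 3.81 in Blackbird. The groups were well apart (2.04, SE 0.56, adjusted p = 0.00786), but the Blackbird arrays lay under the array median, so the fold is not secure. PR5 averaged 6.58 ± 2.0 in 30A and 5.05 ± 1.4 in the mix (SD, n = 3 each), and with the 12 arrays of the Allo-960 family alone the call was lost (adjusted p = 0.0684). GLU1A (LOC780595), a beta-glucosidase that frees toxic aglycones from stored glucosides, read 6.71, 7.10 and 6.86 in Allo-960S7, against 7.73, 11.89 and 12.14 in Blackbird. Replicate 1 of Blackbird lay closer to the hexaploid than to its own group. The difference was −3.70 (SE 0.84, adjusted p = 0.00145), −5.13 without that array and −2.92 without replicate 3 of Blackbird. The mix also spread widely, at 10.21 ± 2.7 (SD, n = 3). The beta-glucanase gene Glc1 was not called (0.28, adjusted p = 0.679). So 1 of 3 defence genes was higher and 1 lower, beside 8.1% and 11.1% of all probe sets.

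LTP3 (LOC543095), a lipid transfer protein of the leaf surface, fell. It read 7.28, 7.04 and 7.62 in Allo-960S7, against 8.91, 8.63 and 8.81 in Blackbird, so that every hexaploid array lay below every parental one. LTP3 was 2.77-fold lower (−1.47, SE 0.20, adjusted p = 1.72e-06). Its other probe set was called lower too, at 11.42 in Allo-960S7 and 12.81 in Blackbird (−1.39, adjusted p = 2.96e-09). With the mix at 8.38 and 30A at 4.15, LTP3 was also lower in Allo-960S7 than in the mix (−1.07, adjusted p = 0.000592).

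Carbon metabolism had both gains and losses. FBP, a fructose-bisphosphatase put in the Calvin cycle list, read 12.37, 12.51 and 12.30 in Allo-960S7, against 11.92, 11.91 and 11.90 in Blackbird (0.48, SE 0.095, adjusted p = 0.000285). Its other probe set, under the array median, was not called. 1-FEH (LOC543441), an exohydrolase that breaks down fructan, read 11.63, 11.55 and 11.19 in Allo-960S7, against 10.78, 10.78 and 11.02 in Blackbird (0.60, SE 0.13, adjusted p = 0.00118). For both genes Allo-960S7 averaged above both parents: 30A stood at 12.18 for FBP and 11.14 for 1-FEH. Both genes were also higher in Allo-960S7 than in the mix (FBP 0.36, adjusted p = 0.0135; 1-FEH 0.50, adjusted p = 0.0148). AGP-S (LOC543299), the small subunit of the starch enzyme ADP-glucose pyrophosphorylase, was 1.25-fold higher (adjusted p = 0.015), a call lost without replicate 1 or 2 of either line (adjusted p 0.0576 to 0.101). GAPN, a cytosolic glyceraldehyde-3-phosphate dehydrogenase that feeds NADPH, read 10.70, 10.87 and 11.20 in Allo-960S7, against 11.24, 11.26 and 11.42 in Blackbird (−0.38, SE 0.11, adjusted p = 0.0157). GAPN was at 11.83 in 30A and 11.50 in the mix, above the hexaploid, and its call was lost without replicate 1 or 2 of Allo-960S7 or replicate 3 of Blackbird (adjusted p 0.0676 to 0.154). In the list of Rubisco and the Calvin cycle, which GAPN had been put in, 1 of 5 genes was higher and 1 lower. Of all probe sets, 8.1% were higher and 11.1% lower. Of the 3 genes in the starch list (AGP-S, AGA.1 and GBSS-I) 1 was higher, beside the same 8.1%. 1-FEH was in no list. By median these lists stood at 0.00 and −0.02, against −0.04 over all probe sets.

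Of 6 translation genes, 3 were called lower and 1 higher, beside 11.1% and 8.1% of all probe sets, and each of the 4 calls was lost without some single array. RPL9 (LOC543077), a protein of the large ribosomal subunit, read 9.55, 10.09 and 10.05 in Allo-960S7, against 10.62, 10.59 and 11.10 in Blackbird. It was 1.83-fold lower (−0.87, SE 0.25, adjusted p = 0.0131), and lower than the mix, at 10.70 (−0.80, adjusted p = 0.0475). Without replicate 1 of Allo-960S7 or replicate 3 of Blackbird the call was lost (adjusted p = 0.0981 and 0.0958). eIF-2-beta (LOC543269), a subunit of the factor that brings the initiator tRNA, was 1.29-fold lower (adjusted p = 0.00516; not called without replicate 3 of Allo-960S7) and lower than the mix (−0.31, adjusted p = 0.0358), and the ribosomal gene RPS29 (LOC606342) was lower at levels around the array median, 4.19 in Allo-960S7 and 4.63 in Blackbird (adjusted p = 0.0347; against the mix −0.52, adjusted p = 0.0243). Eif4B (LOC543417), an initiation factor, was 1.23-fold higher (adjusted p = 0.0398). The RPS29 call was lost without any 1 of 5 of the 6 arrays, and that of Eif4B without any 1 of the 6. Another probe set of RPS29 was called lower too (−0.77, adjusted p = 0.0304). Both lines lay under the array median there, at 3.16 in Allo-960S7 and 3.92 in Blackbird. The median of the list was −0.29, against −0.04 over all probe sets.

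Prx1, a peroxidase-family antioxidant gene by its list, rose. It was the 1 of 5 genes there called by the probe set used, beside 19.2% of all probe sets. By its main probe set Prx1 (LOC606328) read 12.33, 12.76 and 12.61 in Allo-960S7, against 11.78, 11.61 and 11.96 in Blackbird (0.78, SE 0.21, adjusted p = 0.00699). A second probe set read 12.25, 12.63 and 12.67 in Allo-960S7, against 4.07, 3.98 and 4.13 in Blackbird, under the array median (adjusted p = 1.23e-24). The other 2 probe sets, at 0.01 and −0.25, were not called. The other 4 genes of the antioxidant list (CAT1, GSTZ1, lgul and PER1) were not called by the probe set used. Other probe sets of the glutathione transferase gene GSTZ1 were called lower, at 6.80 in Allo-960S7 and 8.28 in Blackbird (−1.48, adjusted p = 7e-10) and at 9.37 in Allo-960S7 and 10.15 in Blackbird (−0.78, adjusted p = 0.0169). One of lgul was called higher, at 6.76 in Allo-960S7 and 5.80 in Blackbird (0.97, adjusted p = 0.00157).

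In purine metabolism APRT (LOC543227), which salvages adenine, rose and AdSS (LOC543243), a step of AMP synthesis, fell. APRT read 11.38, 11.20 and 10.96 in Allo-960S7, against 10.48, 10.67 and 10.78 in Blackbird (0.54, SE 0.099, adjusted p = 0.000133). AdSS read 9.13, 9.04 and 8.87 in Allo-960S7, against 9.35, 9.32 and 9.42 in Blackbird (−0.35, SE 0.10, adjusted p = 0.0149), with the mix at 9.37 and 30A at 9.56; its call was lost without replicate 3 of either line (adjusted p = 0.108 and 0.0633). Outside the lists, raftin1b (LOC543009), named for a protein of the anther tapetum, read 5.86, 5.83 and 5.70 in Allo-960S7, against 4.88, 4.68 and 4.46 in Blackbird (1.13, SE 0.14, adjusted p = 3.19e-07). At 4.95 the mix lay near Blackbird, 30A stood at 6.17, and raftin1b was higher in Allo-960S7 than in the mix (0.85, adjusted p = 0.000106). Its other probe set, near the array median, was not called. The gene la-17 (LOC543289) was 1.64-fold lower (adjusted p = 9.36e-05; against the mix −0.50, adjusted p = 0.0108), and cys1, the only called gene with a name that the rule for naming left out, was lower by 0.31 log2 units (adjusted p = 0.0203).

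In 11 of the 20 lists, with 42 genes in all, none was called by the probe set used. They were grouped by having no call, so their share cannot be read against the 19.2% of all probe sets. Over all 102 named genes 21.6% were called. The 11 lists are photosynthesis (2 genes), glycolysis (1), the cytoskeleton (7), histones and chromatin (6), enzyme inhibitors (6), metal handling (2), cold and dehydration (3), heat shock (1), transport (5, of which 3 matched by letters only), transcription factors (2) and seed proteins (8). On the probe sets used for the 42 genes, the differences furthest from 0 were those of the beta-tubulin tubb1 (−0.81, SE 0.39, adjusted p = 0.175) and the zinc finger gene WZF1 (0.63, SE 0.54, adjusted p = 0.563). Another probe set was called for 3 of the 42. Another probe set of the alpha-tubulin TUBA was lower, at 10.85 in Allo-960S7 and 11.51 in Blackbird (−0.66, adjusted p = 2e-04). One of the beta-tubulin Tubb5 was higher, at 6.04 in Allo-960S7 and 4.92 in Blackbird (1.11, adjusted p = 0.00127). One of the histone gene wcH2B-8 was lower, at 5.40 in Allo-960S7 and 6.06 in Blackbird (−0.66, adjusted p = 0.00233). Over the 102 named genes, 11 of 98 other probe sets were called, beside 19.2% of all probe sets, and 6 genes were called by another probe set alone.

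A strong contrast between D and BBAA lines did not always come with a call. In 8 of the 102 named genes TQ18 differed by at least 4-fold from the mean of TTR13 and TD265, and 3 of the 8 (PIMT, LTP3 and GLU1A) were called by the probe set used. Of all probe sets, 70.6% were called higher where TQ18 was 2 to 4 log2 units higher, and 92.4% at 4 units and above. Where TQ18 was 2 to 4 units lower 57.1% were called lower, and 64.4% at more than 4 units. The glyoxalase gene lgul, which clears methylglyoxal, was at 6.35 in 30A and 10.74 in the mix of parental RNA. It averaged 10.89 ± 0.14 in Allo-960S7 and 11.03 ± 0.18 in Blackbird (SD, n = 3 each; difference −0.14, SE 0.20, adjusted p = 0.78). That is the probe set used for the contrast with TQ18, and the other one of lgul was called higher, as given above. DMAS1, an enzyme of iron-binding phytosiderophores, was at 4.51 in 30A and averaged 7.56 ± 0.04 in Allo-960S7 and 7.92 ± 0.092 in Blackbird (SD, n = 3 each; −0.37, SE 0.18, adjusted p = 0.197). The xylanase inhibitor gene xip was at 9.11 in 30A and averaged 7.83 ± 0.17 in Allo-960S7 and 7.75 ± 0.097 in Blackbird (SD, n = 3 each). Blackbird itself was high for xip beside TTR13, at 4.84, and TD265, at 5.37. The mix stood at 7.46 for DMAS1 and 8.20 for xip. Against the mix, lgul (0.15, adjusted p = 0.771), DMAS1 (0.10, adjusted p = 0.847) and xip (−0.37, adjusted p = 0.493) were not called. On the probe sets used, wcH2B-8 (−0.07) and WZF1 were the others without a call.

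The same step was taken in another family. XX329 is a resynthesized hexaploid with Extracted-tetra as its maternal parent and TQ18 as the donor of the D genome, and Extracted-tetra is a tetraploid recovered from bread wheat by backcrossing, with its BBAA genomes. XX329 minus Extracted-tetra shares no array with Allo-960S7 minus Blackbird. Of its probe sets 11440 (18.7%) were called, 4363 (7.13%) higher and 7077 (11.6%) lower. Both comparisons called 2461 probe sets higher, which is 49.6% of those higher in Allo-960S7 and 56.4% of those higher in XX329. They called 2954 lower, which is 43.4% of those lower in Allo-960S7 and 41.7% of those lower in XX329. In opposite directions were 238 of the 4958 called higher in Allo-960S7 and 106 of the 6813 called lower. Across the 61179 probe sets, which share the joint normalization of the arrays, the differences correlated with r = 0.674. Arrays of XX329 correlated with each other at r from 0.9792 to 0.9887, and those of Extracted-tetra at 0.9917 to 0.9934.

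Tested directly, the change differed between the hexaploids for 4107 probe sets (6.71%), 2136 (3.49%) with a higher and 1971 (3.22%) with a lower value in the Allo-960S7 comparison. The large losses stood out in this test: of the 179 probe sets at least 4-fold lower in Allo-960S7, 135 (75.4%) differed from XX329 minus Extracted-tetra, whose median over them was −0.52. Of the 954 at least 4-fold higher, 387 (40.6%) differed, and the median in XX329 was 2.56. Since both sets were chosen on the Allo-960S7 difference, some of the gap from XX329 is built into the choice. Hybridisation controls averaged 9.123 to 9.542 on the 6 arrays of Allo-960S7 and Blackbird and 9.736 to 10.19 on those of XX329 and Extracted-tetra, so an effect of array set and a difference between the families cannot be told apart. The actin difference was −0.406 ± 0.182 in XX329 and 0.337 ± 0.246 in Extracted-tetra (SD, n = 3 each), and with it as a covariate 3186 probe sets differed.

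Among named genes, PIMT and Prx1 rose in both families. PIMT was higher by 1.61 in XX329 than in Extracted-tetra (SE 0.21, adjusted p = 9.17e-07), and the test of the difference between families was not passed (−0.27, SE 0.30, adjusted p = 0.728). Prx1 was higher by 0.92 (adjusted p = 0.00188; difference between families −0.14, SE 0.30, adjusted p = 0.884). It averaged 11.86 ± 0.52 in XX329 and 10.94 ± 0.54 in Extracted-tetra. PIMT was at 8.05 ± 0.55 in XX329 and 6.45 ± 0.26 in Extracted-tetra (SD, n = 3 each). FBP (0.37, adjusted p = 0.00535) and raftin1b (0.87, adjusted p = 2.63e-05) were also higher in XX329, and AdSS was lower (−0.36, adjusted p = 0.0135).

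LTP3, GA20ox1b, GA20ox1d, GAPN and RPL9 changed differently. LTP3 was at 4.70 in XX329 and 4.76 in Extracted-tetra, near the array median, and the difference between families was −1.42 (SE 0.29, adjusted p = 0.00154). GA20ox1b stood at a difference of 0.00 there (between families −0.93, SE 0.23, adjusted p = 0.00839). GA20ox1d was higher in XX329 (0.72, adjusted p = 0.0105), opposite to Allo-960S7 (between families −1.32, SE 0.28, adjusted p = 0.00287). GAPN was higher too (0.37, adjusted p = 0.0222; between families −0.75, SE 0.16, adjusted p = 0.00296). For RPL9 the value in XX329 was 0.42 (adjusted p = 0.297; between families −1.29, SE 0.36, adjusted p = 0.0244). The XX329 arrays spread widely for RPL9, at 10.51 ± 0.93, and for GA20ox1d, at 5.44 ± 0.59 (SD, n = 3 each). Each SE rests on a spread pooled over the 11 groups. For single genes, the differences between families were not rerun with an array left out.

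TAA10, a natural bread wheat, was set against Extracted-tetra as a further contrast between hexaploid and tetraploid, which shares the Extracted-tetra arrays with the XX329 comparison. It called 11206 probe sets (18.3%), 4306 (7.04%) higher and 6900 (11.3%) lower. The change differed from that in Allo-960S7 for 5214 (8.52%), with 2571 (4.2%) higher and 2643 (4.32%) lower values in Allo-960S7. PIMT was higher in TAA10 than in Extracted-tetra by 1.67 (adjusted p = 3.88e-07), and PEAMT1, lower in Allo-960S7, was higher by 0.39 (adjusted p = 0.025).

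**Figure D5:**
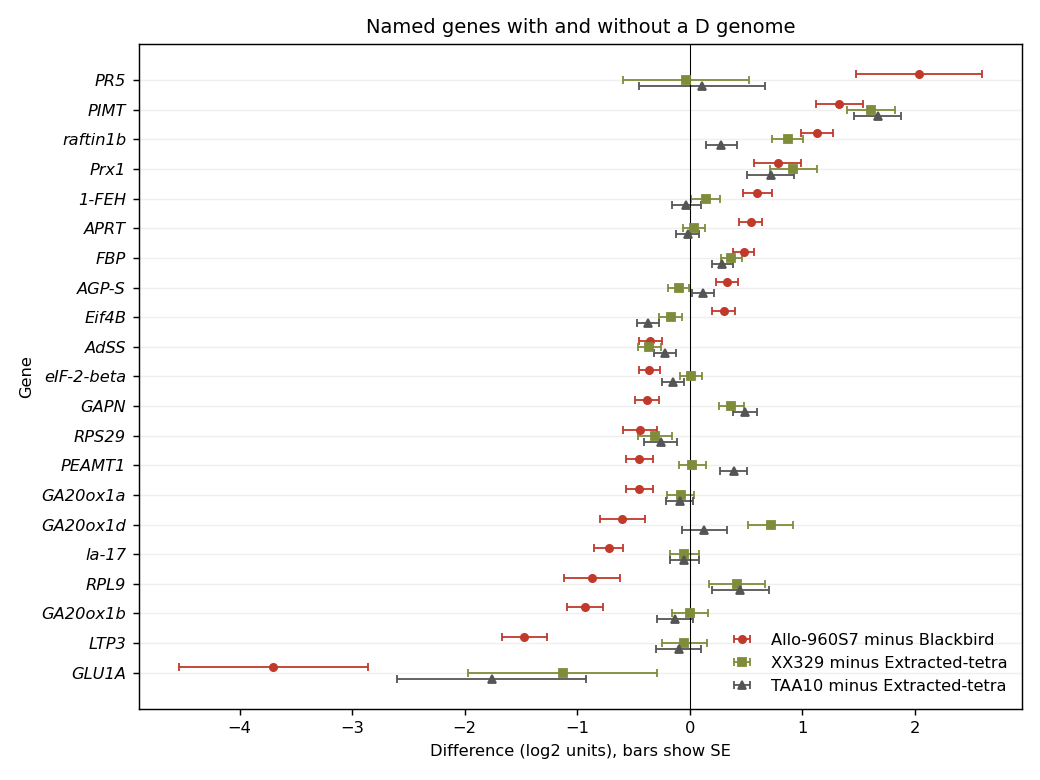
Log2 differences with SE for 21 named genes in Allo-960S7 minus Blackbird (red circles), XX329 minus Extracted-tetra (green squares) and TAA10 minus Extracted-tetra (grey triangles); the last 2 share the Extracted-tetra arrays. PIMT and Prx1 lie to the right of 0 in all 3, and LTP3, la-17 and GA20ox1b lie near 0 outside Allo-960S7.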

How the data were processed

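The authors deposited log2 expression values, 1 per probe set and array, for 33 arrays in 11 groups of 3; RMA and limma are listed, with no version, per the submitters' processing notes. Nothing labels the replicates as separate plants beyond "biological", and arrays carry no read depth, so their number limits precision. All 33 arrays entered 1 cell-means model (R 4.3.3, package limma 3.58.1, functions lmFit and eBayes, 28.51 total degrees of freedom), with Benjamini-Hochberg adjustment over 61179 probe sets and a threshold of 0.05. With 3 arrays against 3, an exact permutation p cannot fall under 0.1, so none is given. On simulated data of the same 61179 probe sets with 200 changed in Allo-960S7 minus Blackbird, 31.5% of 1.5-fold, 88.5% of 2-fold and 98.5% of 3-fold changes were recovered. The adjustment is stricter when few probe sets change, and 11771 were called in the data. These shares are therefore not the recovery in the comparison itself.

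The platform annotation named 1273 probe sets of 771 genes, and 1272 matched RefSeq by Entrez ID (assembly IWGSC CS RefSeq v2.1, names only). Each gene was read from its brightest probe set, avoiding the x type where another existed. RPS29 had the x type alone, and the other probe set of LTP3 is of that type too. With x and s types left out, RPS29 and raftin1b, read from an s type, were not tested. RefSeq product descriptions were not used here, so lists were matched on symbols and aliases. Genes named are the 12 highest and 12 lowest differences among called genes with no overlap between the 2 lines and a higher mean above 4.441, plus up to 3 called members per list. The sets of large differences were defined after values were seen. Members and lists were chosen with earlier results of these data known. Same-numbered replicates of Allo-960S7 and Blackbird did not deviate together (r across probe sets 0.019, −0.015 and 0.05), so they were not treated as pairs.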

Additional observations from a re-analysis of the deposited data

Results flagged for a closer look

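Several named genes changed by a different amount in Allo-960S7 minus Blackbird than in a comparison of other lines, by limma's test of the difference itself. In all, 4107 probe sets differed from XX329 minus Extracted-tetra and 5214 (8.52%) from TAA10 minus Extracted-tetra, a bread wheat against the tetraploid; these comparisons share the Extracted-tetra arrays. Against XX329, the values more positive in Allo-960S7 were those of APRT (0.50, adjusted p = 0.0259) and Eif4B (0.47, adjusted p = 0.0473). More negative were GA20ox1d (−1.32), LTP3 (−1.42), RPL9 (−1.29), GA20ox1b (−0.93), GAPN (−0.75) and la-17 (−0.66, adjusted p = 0.0223).

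Against TAA10, raftin1b (0.84, adjusted p = 0.0052), Eif4B (0.67, adjusted p = 0.00243), 1-FEH (0.63, adjusted p = 0.032) and APRT (0.56, adjusted p = 0.00876) were more positive. The more negative were LTP3 (−1.37, adjusted p = 0.00166), RPL9 (−1.31, adjusted p = 0.0172), GAPN (−0.87, adjusted p = 0.000412), PEAMT1 (−0.85, adjusted p = 0.00155), GA20ox1b (−0.80, adjusted p = 0.0214) and la-17 (−0.67, adjusted p = 0.0169). So APRT, Eif4B, LTP3, RPL9, GAPN, GA20ox1b and la-17 differed from both.

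Of the probe sets without a gene name, Ta.7843.1.S1_a_at differed by 4.18 from XX329 and 1.56 from TAA10 (adjusted p = 3.17e-11 and 0.00059), Ta.28750.1.S1_at by −7.53 and −7.85 (adjusted p = 6.63e-10 and 1.68e-10), and Ta.1928.1.S1_a_at by −5.25 and −5.35 (adjusted p = 3.55e-05 and 1.81e-05). Blackbird and Extracted-tetra lay under the array median for Ta.7843.1.S1_a_at (3.18 and 3.57), and Allo-960S7, XX329 and Extracted-tetra did for Ta.1928.1.S1_a_at (4.25, 3.23 and 3.13), so these sizes are not secure. Extracted-tetra lay under it for Ta.28750.1.S1_at too, which was at 6.57 ± 1.2 in XX329 and 4.24 ± 0.15 in Extracted-tetra (SD, n = 3 each).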

How the results depend on the processing

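The count for Allo-960S7 minus Blackbird lay between 9393 and 10202 when each array was left out in turn (4229 to 4468 higher, 5164 to 5799 lower, and 16 to 19 named genes). It was within 1.5 times of 11771 under every other alternative but a 2-fold minimum, which gave 3777 (2246 higher, 1531 lower) and 5 named genes. None of the 21 genes run under the alternatives changed sign. The 2-fold minimum gave 2122 against XX329 minus Extracted-tetra, 2768 against TAA10 minus Extracted-tetra, 1423 shared with XX329 and 1415 for Allo-960S7 minus Allo-960 mix. Centring on the hybridisation controls gave 14 named genes, 3149 against TAA10, 2795 against the mix, and medians of 1.56 (D-enriched) and −0.67 (BBAA-enriched); array weights gave 34, 8334 and 12553. The cause was not tested. For D-enriched and BBAA-enriched probe sets the medians were 0.67 and −0.55 with a 2-fold choice, and 1.40 to 1.43 and −0.63 to −0.59 with an array left out. Leaving out an array gave 3157 to 5274 against XX329, 4092 to 5127 against TAA10, 4560 to 5387 shared and 3349 to 5060 for the mix, the last with 3364 without replicate 2 of Allo-960S7 and 3349 without replicate 2 of the mix, in place of 5227. The replicate number as a block gave 11709 and changed no call of these 21 genes; same-numbered replicates did not pair (r 0.019, −0.015 and 0.05), and 1 of 3 correlated best with its own number. Control centring lost the calls of AdSS, AGP-S, APRT, eIF-2-beta, Eif4B, GAPN and RPS29, and median centring that of Eif4B. A fit of the 6 arrays alone lost AGP-S and GAPN, and one of the 12 Allo-960 family arrays lost PR5 and Eif4B. The precision of 3 arrays a group limits changes under 2-fold most.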

Other observations

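Calls were more frequent among brighter probe sets. Ranked by their mean on the 27 arrays outside the comparison, the 12236 dimmest (2.42 to 3.24 log2 units) had 1.91% called and the 12236 brightest (6.99 and above) 42.9%, 19.1% higher and 23.8% lower in Allo-960S7. Of the genes with several annotated probe sets, 298 in all, 7 had probe sets called in both directions, 56 higher only, 70 lower only and 165 none. The within-group SD had a median over probe sets of 0.117 in Allo-960S7 and 0.118 in Blackbird.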
